A study of Mus musculus with 2 samples.

Results

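ENTERO-PRO and ISC are the class names under which the study's cell table lists enterocyte progenitors and intestinal stem cells. Every cell that the table lists as ENTERO-PRO or ISC entered the comparison, and the raw unique molecular identifiers (UMIs, each standing for 1 captured RNA molecule) were summed per library and class. ENTERO-PRO held 297 of the 11562 listed cells, 118 in replicate 1 and 179 in replicate 2, and ISC held 2292, 553 in replicate 1 and 1739 in replicate 2. This gave 2 sums per class, paired by library.

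The study profiled single cells from mouse ileal crypts by droplet 3' RNA sequencing. Both classes come from the same 2 libraries, labelled as wild type ileum crypt, of Atoh1CreER-T2;R26RTom mice, in which tamoxifen switches on a Tom (tomato) reporter in cells that transcribe Atoh1 and, through them, in their descendants. The mice received 2 intraperitoneal doses of tamoxifen at 1 mg/mL, 24 h apart, and crypts were taken 12 h after the last dose and freed with EDTA. Only live Tom+ cells were sorted, so ENTERO-PRO and ISC cells here share the same allele, drug and sort, and neither class stands for all such cells of the ileum. No label ties the 2 libraries to separate animals, so the p-values below measure the spread between these libraries, which may be technical. That spread was estimated jointly over the 24 sums of all 12 classes of the cell table, with library terms in the model. It is thus not the spread of the ENTERO-PRO and ISC sums alone. The authors assigned the classes from the same expression values, so the tests are not independent evidence that the classes differ.

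Crypt base stem cells divide under Wnt signals from their niche, and their daughters pass through a dividing zone before they settle into the absorptive or the secretory lineage. Notch signalling holds Atoh1 off in cells that become enterocytes, while Atoh1 drives the secretory fate. Enterocytes of the ileum digest and absorb nutrients across a microvillus brush border and take up bile acids, a task particular to the end of the small intestine.

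The libraries held 66021021 and 40869800 UMIs, of which 32656481 and 27014983 lay in listed cells. ENTERO-PRO sums held 632914 and 789346 UMIs, and ISC sums 3155894 and 7521630. The median ENTERO-PRO cell had 5135 UMIs in replicate 1 and 3909 in replicate 2, and the median ISC cell 5825 and 3973. Mitochondrial transcripts made up a median of 5.59% in ENTERO-PRO in both libraries, against 5.55% and 4.90% in ISC. ENTERO-PRO made up 2.22% of listed cells in replicate 1, with a 95% Clopper-Pearson interval from 1.84% up to 2.66%. In replicate 2 it made up 2.86%, with an interval from 2.46% up to 3.30%. Intervals and limits given here cover counting error only. No cell barcode of ENTERO-PRO or ISC occurred in both libraries, and 12 of all listed barcodes did. A doublet caller marked 1 cell in each library, which is too few for it to have worked.

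All 12 enterocyte markers were higher in ENTERO-PRO. Apoa1, the main protein of high density lipoprotein, had 4225 and 1831 scaled CPM (counts per 1000000 UMIs, after scaling between sums) in ENTERO-PRO, against 2.04 and 8.31 in ISC. Fabp2, the intestinal fatty acid binding protein, had 7430 and 2388 CPM in ENTERO-PRO, against 180.2 and 164.7 in ISC. Both genes were far apart between the classes in each library, and ENTERO-PRO replicate 1 stood above replicate 2. Their UMIs came mostly from a minority of the class. Cells with over 1% of their UMIs from the enterocyte markers and at most 2% from goblet markers, 38 of 118 and 25 of 179, gave 92.2% and 87.7% of the Apoa1 UMIs and 87.7% and 76.4% of the Fabp2 UMIs. Cells under both limits gave at most 2.45% of either, and both genes belong to the list that sets the enterocyte limit. Alpi, the brush border alkaline phosphatase, had 48 and 24 UMIs in ENTERO-PRO and 0 and 7 in ISC. Krt20, a keratin of differentiated cells, had 872.7 and 627.9 CPM in ENTERO-PRO, against 30.5 and 52.3 in ISC. Krt20 was not particular to ENTERO-PRO among the classes of the table. Its mean was 750.3 CPM there, against 1772 in GOBLET, 1229 in EC, 1154 in NON-EC and 835.6 in EEC-PRE. EC stands for enterochromaffin cells, NON-EC for peptide hormone enteroendocrine cells and EEC-PRE for enteroendocrine precursors.

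All 11 stem cell markers tested were lower in ENTERO-PRO, and the twelfth, Gkn3, had too few UMIs to test. Lgr5, an R-spondin receptor and the classic stem cell marker (mm10 chr10:115450311-115587780, minus strand), had no UMI in either ENTERO-PRO sum, against 59.3 and 36.3 CPM in ISC. With a floor of 3 UMIs per library, Lgr5 was at least 13.954-fold lower in ENTERO-PRO in replicate 1 and at least 10.976-fold lower in replicate 2. Ascl2, a Wnt-driven stem cell transcription factor, was likewise at 0 in both ENTERO-PRO sums, against 34.6 and 20.8 CPM in ISC, at least 8.14-fold and 6.27-fold lower. Olfm4, a secreted stem cell glycoprotein, had 19.8 and 14.3 CPM in ENTERO-PRO, against 1811 and 847.4 in ISC. With each cell thinned to 2000 UMIs, 0 of 93 and 0 of 152 ENTERO-PRO cells had an Lgr5 UMI, which with a floor of 3 cells allows shares of cells with a UMI at that depth of up to 3.23% and 1.97%, against 12.2% and 9.32% of ISC cells. In goblet precursors (GOBLET-PRE), which should lack Lgr5, the share at that depth was 0.177% and 0.388%. Without thinning the shares were 0 of 118 and 0 of 179 ENTERO-PRO cells, against 24.2% and 14.3% of ISC cells. The stem cell list summed to 308.1 and 299.0 CPM before scaling in ENTERO-PRO, against 3656 and 2367 in ISC, and 4 of its 12 members were at 0 in each ENTERO-PRO library. The levels of proliferation genes, which bear on the word progenitor, are given with the cell cycle lists.

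ENTERO-PRO cells were uneven in marker content, in a way that touches many results below. The goblet cell list had 6 of 9 members higher in ENTERO-PRO, and its summed level before scaling was 62220 and 70299 CPM in ENTERO-PRO, against 13040 and 22505 in ISC. The same sum was 161520 and 154840 CPM in GOBLET-PRE and 66231 and 56073 CPM in free RNA, read from barcodes of at most 50 UMIs. Muc2, the gel-forming mucin of goblet cells, had 3547 and 4481 CPM in ENTERO-PRO, against 745.3 and 1258 in ISC. These UMIs sat in part of the cells. Limits of 2% goblet marker UMIs and 1% enterocyte marker UMIs, chosen after the values were seen, split ENTERO-PRO into sets that are ranges of marker content and not cell types.

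Cells under both limits, called marker-low here, were 36 of 118 in replicate 1 and 72 of 179 in replicate 2, or 30.5% and 40.2% of ENTERO-PRO. Enterocyte-marker-high cells were 38 and 25 (32.2% and 14%), goblet-marker-high cells 41 and 75 (34.7% and 41.9%), and 3 and 7 cells were over both limits. Goblet-marker-high cells held 50.3% and 60.2% of the class's UMIs and had a median of 8206 and 6243 UMIs per cell. Enterocyte-marker-high cells held 16.9% and 7.99% of the UMIs, with a median of 2068 and 2305 UMIs per cell. Among goblet-marker-high cells, 24.4% and 9.33% had a doublet score in the top 10% of their library, against 0% of the marker-low and of the enterocyte-marker-high cells. In ISC, 72 and 454 cells were over the goblet limit (13.0% and 26.1%), of which 66.7% and 48.5% were in the top doublet scores, and no ISC cell was over the enterocyte limit. Of the 297 ENTERO-PRO cells, 9 lay within 1.5 times of the goblet limit and 12 within 1.5 times of the enterocyte limit. The part that the mixture plays in each difference was not tested beyond the fits without these cells.

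**Figure D1:**
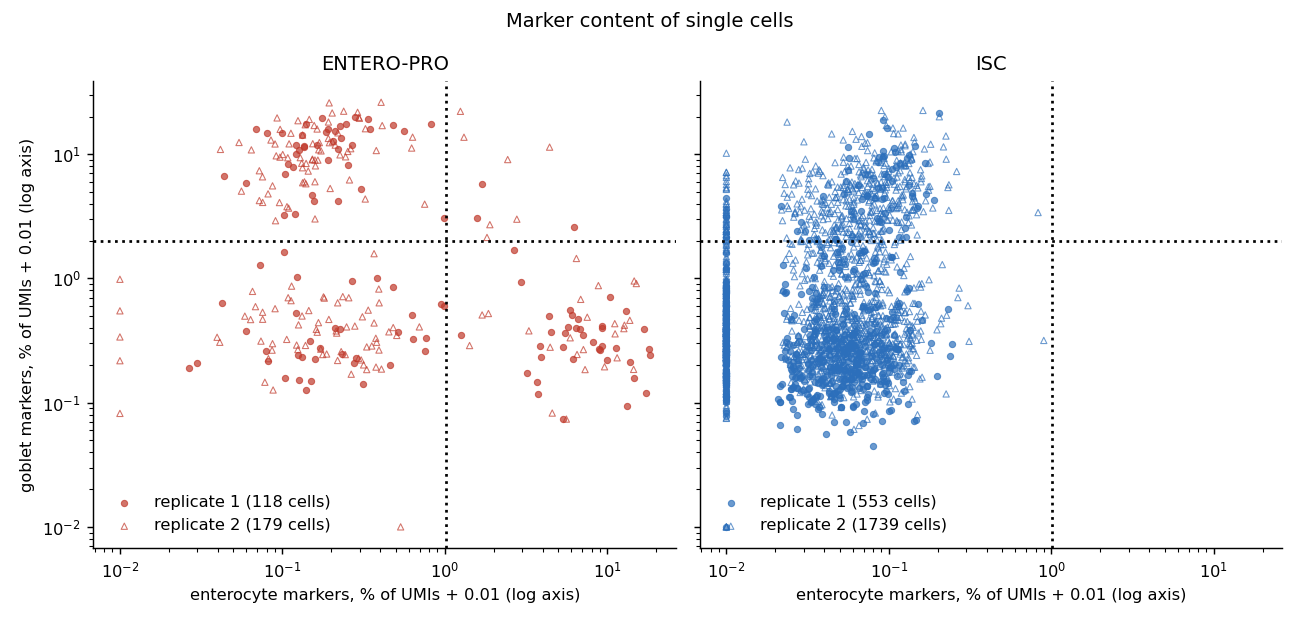
Each point is 1 cell, filled for replicate 1 and open for replicate 2, with the share of its UMIs from the 12 enterocyte markers across and from the 9 goblet markers up, both in percent plus 0.01 on log axes. Dotted lines mark the limits of 1% and 2%. ENTERO-PRO cells spread into a low group and 2 arms, one rich in enterocyte markers and another rich in goblet markers, and no ISC cell lies right of the enterocyte limit.

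Across the 10923 genes tested outside the marker lists, 2026 were higher in ENTERO-PRO (18.5%) and 2012 were lower (18.4%) by edgeR's quasi-likelihood test at an adjusted p under 0.05. The median log2 difference over all genes was -0.07, and differences below are read against it. Of the genes called higher, 1034 had a log2 difference of 1 or more, and of those called lower 1246 had -1 or less. Within each library on its own, 2020 of the 2026 and 2012 of the 2012 had the direction of the call. The difference was larger in replicate 1 for 71.4% of the genes called higher and 64.7% of those called lower. Fits without the cells over a limit left such cells out of both ENTERO-PRO and ISC. In ISC these cells, all over the goblet limit, held 16.0% and 35.5% of the class's UMIs. Without the cells over either marker limit, 991 of 10824 genes were higher (9.16%) and 1103 lower (10.2%), and they included 867 of the 2026 and 992 of the 2012. In that fit 1766 of 1980 genes called higher were still above 0 and 1994 of 2007 called lower were still below 0. These shares are the background against which the counts of each gene list below are read. Leaving out ENTERO-PRO replicate 1 gave 1324 genes lower, and leaving out ENTERO-PRO replicate 2 gave 1266.

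**Figure D2:**
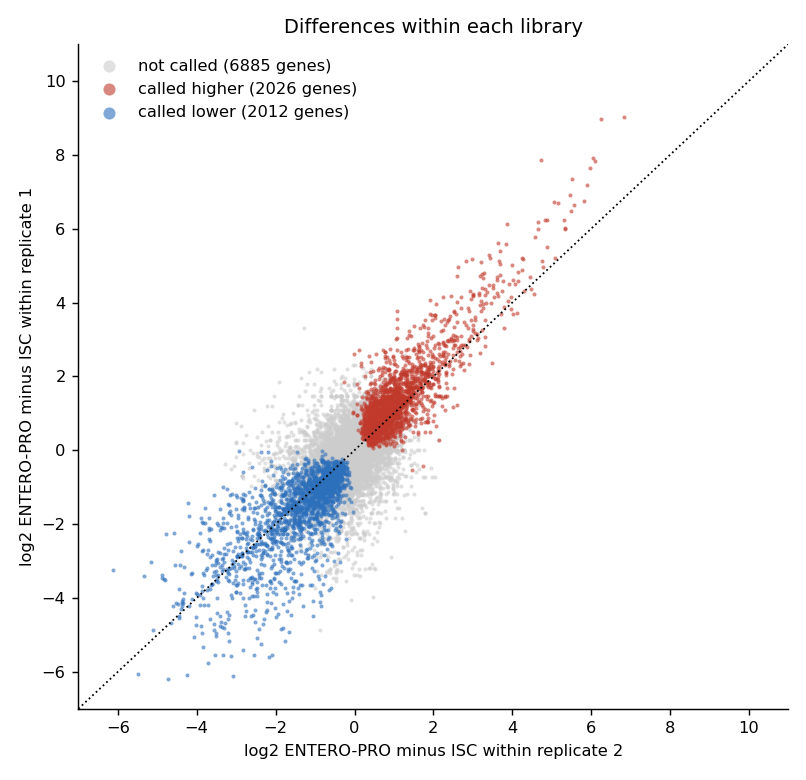
Each point is 1 of the tested genes, with its log2 difference, ENTERO-PRO minus ISC, within replicate 1 up and within replicate 2 across, coloured by its call. Called genes lie in the same quadrant in both libraries, apart from 6 of the 2026 genes called higher.

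Outside the cell type markers, and among genes with a mean log2 CPM of at least 5 over the 4 sums, the largest difference was that of Fabp6, the ileal bile acid binding protein (mm10 chr11:43596049-43601540, minus strand). Fabp6 had 7168 and 4695 CPM in ENTERO-PRO, against 59.1 and 106.5 CPM in ISC. Both ENTERO-PRO sums lay far above both ISC sums, a 74.0-fold difference (log2 6.21 ± 0.39, adjusted p = 6.0e-08). The call was lost in the fit of the 4 sums alone with the replicate block (log2 6.05, adjusted p = 0.165). Among the 12 classes of the table, ENTERO-PRO averaged 5932 CPM, GOBLET 152.7, PANETH 88.6 and ISC 82.8, and the other 8 classes lay between 10.2 and 31.5 CPM. In this order ISC stood next to PANETH, and the PANETH libraries (38.4 and 138.8 CPM) spanned both ISC libraries. With each cell thinned to 2000 UMIs, 66.7% and 66.4% of ENTERO-PRO cells had a Fabp6 UMI, against 7.38% and 8.49% of ISC cells. The same share was 4.44% and 4.81% in GOBLET-PRE and 3.85% and 4.6% in TUFT, which should lack the gene. Without thinning it was 78.0% and 71.0% of ENTERO-PRO cells, against 13.9% and 12.8% of ISC cells.

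Fabp6 was high in all sets of ENTERO-PRO cells. Before scaling between sums it had 11830 and 7815 CPM in marker-low cells, 14942 and 14723 in enterocyte-marker-high cells and 3585 and 2708 in goblet-marker-high cells, against 73.5 and 136.4 CPM in ISC. The lowest of these sets was thus well above both ISC libraries, and without the cells over either limit the log2 difference was 6.56.

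The other genes with the 12 largest differences divided by the cells that held them. Slc51a, a subunit of the basolateral bile acid exporter, had 209.7 and 158.9 CPM in ENTERO-PRO, against 6.36 and 7.68 in ISC (log2 4.64 ± 0.22, adjusted p = 5.7e-24). It was 5.10 higher on the log2 scale without the cells over the limits. Mgat4c, of the N-acetylglucosaminyltransferase family, had 277.7 and 242.8 CPM in ENTERO-PRO, against 10.7 and 14.3 in ISC. Apol10a, of the apolipoprotein L family, had 409.4 and 370.8 CPM in ENTERO-PRO, against 22.1 and 31.4 in ISC. Their log2 differences were 4.31 ± 0.17 and 3.82 ± 0.15, and 4.73 and 4.41 without the cells over the limits, so both were as large without them. In all 3 genes marker-low cells gave between 36.8% and 49.1% of the ENTERO-PRO UMIs.

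Selenop and Clca4b, by contrast, came mostly from enterocyte-marker-high cells. Selenop, the plasma selenium carrier, had 614.8 and 304.6 CPM in ENTERO-PRO, against 5.09 and 8.31 in ISC (log2 5.95 ± 0.39). Its mean of 459.7 CPM in ENTERO-PRO was close to the 456.5 CPM of EC, the enterochromaffin class of the table. Clca4b, of the family of calcium-activated chloride channel accessory proteins, had 620.5 and 263.7 CPM in ENTERO-PRO, against 8.91 and 9.76 in ISC (log2 5.34 ± 0.27). Enterocyte-marker-high cells gave 87.8% and 72.5% of the Selenop UMIs and 90.4% and 82.8% of the Clca4b UMIs. Without the cells over the limits the differences were 2.79 and 2.19, both still called. Annotated genes overlap Selenop (Ccdc152) and Slc51a (Pcyt1a) on the opposite strand, and no source used here says whether the counting used strand.

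The rest of the 12 were Spink1, a trypsin inhibitor, Gda, the guanine deaminase, Enpep, the brush border glutamyl aminopeptidase, Ces2e, a carboxylesterase, Mxd1, a partner of Max that opposes Myc, and Clec2h, a C-type lectin. Spink1 had 821.7 and 459.0 CPM in ENTERO-PRO, against 39.2 and 19.8 in ISC. Mxd1 had 242.2 and 166.6 CPM in ENTERO-PRO, against 8.14 and 17.0 in ISC. The log2 differences of the 6 lay between 3.92 for Clec2h and 4.48 for Spink1, and all 6 were also called without the cells over the limits, where they lay between 2.24 for Mxd1 and 4.38 for Enpep.

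**Figure D3:**
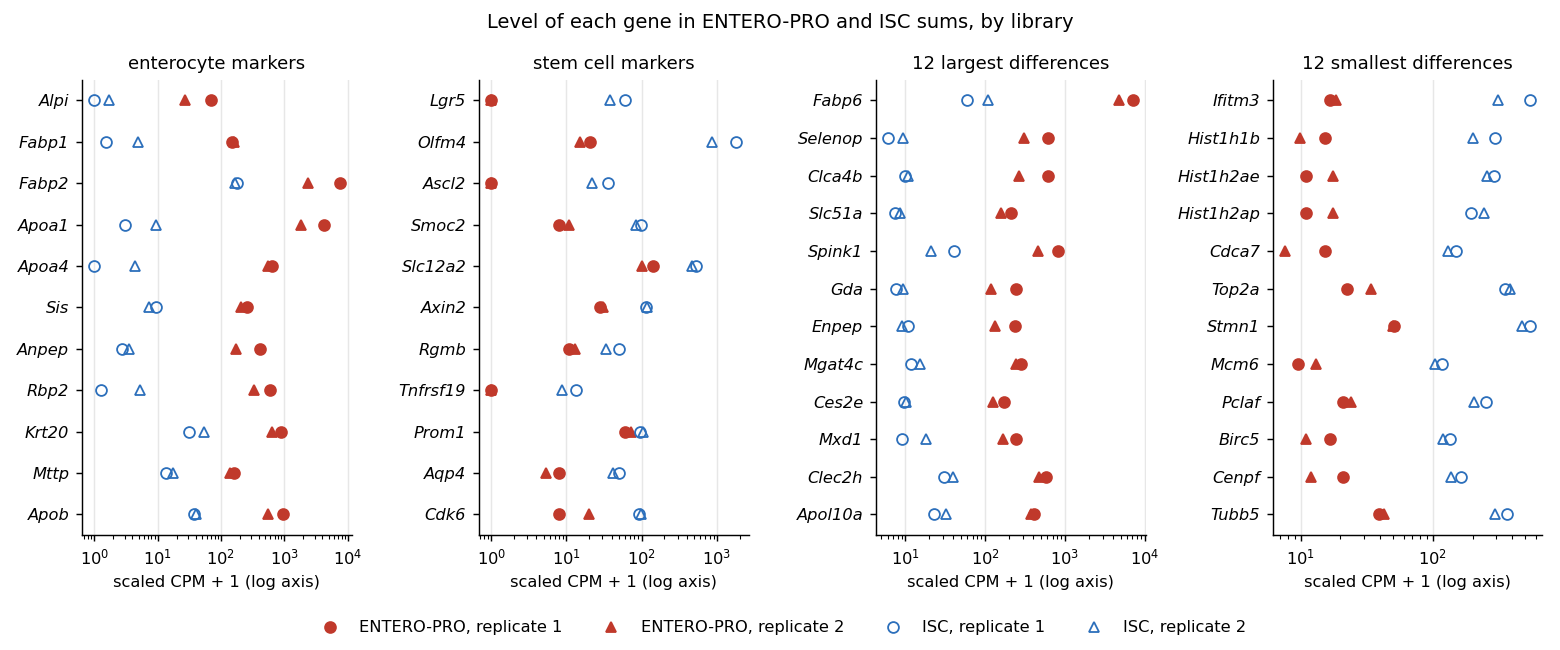
Points give the scaled CPM plus 1, on a log axis, of 11 enterocyte markers, 11 stem cell markers and the 12 largest and 12 smallest differences in each of the 4 sums, filled for ENTERO-PRO and open for ISC, by library. The ENTERO-PRO and ISC points of each gene stand apart, with Fabp6 at 7168 and 4695 CPM in ENTERO-PRO against 59.1 and 106.5 in ISC, and Ifitm3 at 15.6 and 17.7 against 543.4 and 308.7.

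Of 10 genes of bile acid transport and sensing 7 were tested, and 7 of 7 were called higher. With no filter on low counts 8 of 10 were higher and none lower. With a filter at an average log2 CPM of 5 over all 24 sums only 1 was tested, and it was higher. Slc10a2, Slc51a and Slc51b are also in the solute carrier list and Abcc2 in the detoxification list, so these lists are not separate. The members lie along the route of bile acids through the cell. Slc10a2, the apical uptake transporter, had 31.2 and 16.6 CPM in ENTERO-PRO, against 1.02 and 0.31 in ISC. Slc51b, the partner of Slc51a in export, had 270.6 and 133.5 CPM in ENTERO-PRO, against 2.80 and 3.94 in ISC. Nr1h4, the bile acid receptor FXR, had 51.0 and 49.7 CPM in ENTERO-PRO, against 20.9 and 16.3 in ISC (log2 1.47 ± 0.25), the next smallest difference after Abcc3 (1.20). The list's median log2 difference was 4.64, and 5 of 7 were called without the cells over the limits, with a median of 4.44.

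Digestive enzymes and carriers of the brush border rose in nearly every tested member. The filter on low counts keeps genes with enough UMIs in a single class. Genes near 0 in ISC could thus enter the test. Of 20 apical hydrolases 17 were tested, and 16 of these were higher and none lower, with a median of 4.97. DESeq2's Wald test called 12 of 17 higher. With no filter on low counts 18 of 18 were higher. With a filter at an average log2 CPM of 5 only 2 were tested, both higher. Mep1b, a meprin metalloprotease subunit, had 287.6 and 144.6 CPM in ENTERO-PRO, against 3.05 and 4.15 in ISC (log2 5.68 ± 0.22). Mgam, the maltase-glucoamylase, did not pass, with 461.8 and 435.9 CPM in ENTERO-PRO, against 341.3 and 323.0 in ISC. Without the cells over the limits, 11 hydrolases were tested and 9 were higher, with a median of 2.81.

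Of 30 solute carriers 24 were tested, and 21 of these were higher and none lower, with a median of 3.21. With no filter 26 of 30 were higher. With the filter at an average log2 CPM of 5 only 1 was tested, and it was higher. Without the cells over the limits 15 of 23 were higher, with a median of 3.16. Slc15a1, the peptide transporter, had 85.0 and 44.1 CPM in ENTERO-PRO and no UMI in ISC, at least 111.3-fold and 141.7-fold higher against a floor of 3 UMIs per library. DESeq2's Wald test did not call it (adjusted p = 0.245). Slc34a2, a phosphate carrier, had 111 and 56 UMIs in ENTERO-PRO and 0 and 2 in ISC. Slc5a1, the sodium-glucose carrier, had 232.3 and 125.8 CPM in ENTERO-PRO, against 40.5 and 30.0 in ISC. Slc2a5, Slc16a1 and Slc11a2, the carriers of fructose, monocarboxylates and ferrous iron, did not pass, and the first had at most 1.42 CPM in any sum.

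Genes that build the microvillus rose in 24 of 25 tested members, with a smaller median of 1.5. Vil1, the actin bundler villin, had 415.1 and 386.2 CPM in ENTERO-PRO, against 113.0 and 127.2 in ISC (log2 1.73 ± 0.12). Myo1a, the brush border myosin, had 301.8 and 257.1 CPM in ENTERO-PRO, against 48.9 and 65.4 in ISC, and Cdhr5, a cadherin that links microvillus tips, had 413.7 and 377.4 CPM in ENTERO-PRO, against 36.4 and 73.5 in ISC. The exception, Fhdc1, was under 5 CPM in all 4 sums. Leaving out the cells over the limits gave 16 of 23 higher, with a median of 1.08.

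Lipid absorption had 19 of 27 members higher and 1 lower, with a median of 2.10. The filter at an average log2 CPM of 5 left 9 members, of which 6 were higher, with a median of 1.04. Dgat1, which makes triglyceride, had 201.2 and 157.8 CPM in ENTERO-PRO, against 28.0 and 31.0 in ISC, and Apoc3, an apolipoprotein of chylomicrons, had 135 and 108 UMIs in ENTERO-PRO and 0 and 10 in ISC. Creb3l3, a transcription factor of lipid metabolism, had 55 and 51 UMIs in ENTERO-PRO and 0 and 4 in ISC. Its level before scaling was 506.2 and 665.6 CPM in enterocyte-marker-high cells, against 0 and 4.4 CPM in marker-low cells. The member that fell was Slc27a2, a fatty acid transport protein, at 17.0 and 15.4 CPM in ENTERO-PRO, against 46.3 and 31.8 in ISC (log2 -1.22 ± 0.28). In the fit without the cells over the limits 12 of 25 were higher and 1 lower, with a median of 1.48.

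Genes known to peak toward the villus tip were higher in 14 of 15 tested members, with a median of 2.88. The filter at an average log2 CPM of 5 left 5 members, all higher, with a median of 1.35. With only the cells over the enterocyte limit left out 7 of 12 were higher, with a median of 1.16, and with only those over the goblet limit left out 12 of 15 were, with a median of 3.75. Leaving out both gave 3 of 13 and a median of -0.41. Ada, the adenosine deaminase, had 188.4 and 117.0 CPM in ENTERO-PRO, against 5.09 and 6.64 in ISC (log2 4.52 ± 0.21). Before scaling, Ada was at 1153 and 1363 CPM in enterocyte-marker-high cells, at 5.20 and 0 in marker-low cells and at 9.42 and 2.10 in goblet-marker-high cells. Its log2 difference was -0.83 without the cells over the enterocyte limit and -1.64 without those over either limit. Neither was called (edgeR adjusted p = 0.396 and 0.436). Pmp22, a membrane protein known from myelin, had 1125 and 1204 CPM in enterocyte-marker-high cells and none in marker-low cells. Its difference was -2.32 without the cells over either limit and was not called (edgeR adjusted p = 0.850). Klf4, a transcription factor of differentiated epithelium, had 245.1 and 242.8 CPM in ENTERO-PRO, against 59.3 and 98.4 in ISC. Its difference of 1.60 was -0.58 without the cells over either limit, again not called (adjusted p = 0.281).

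**Figure D4:**
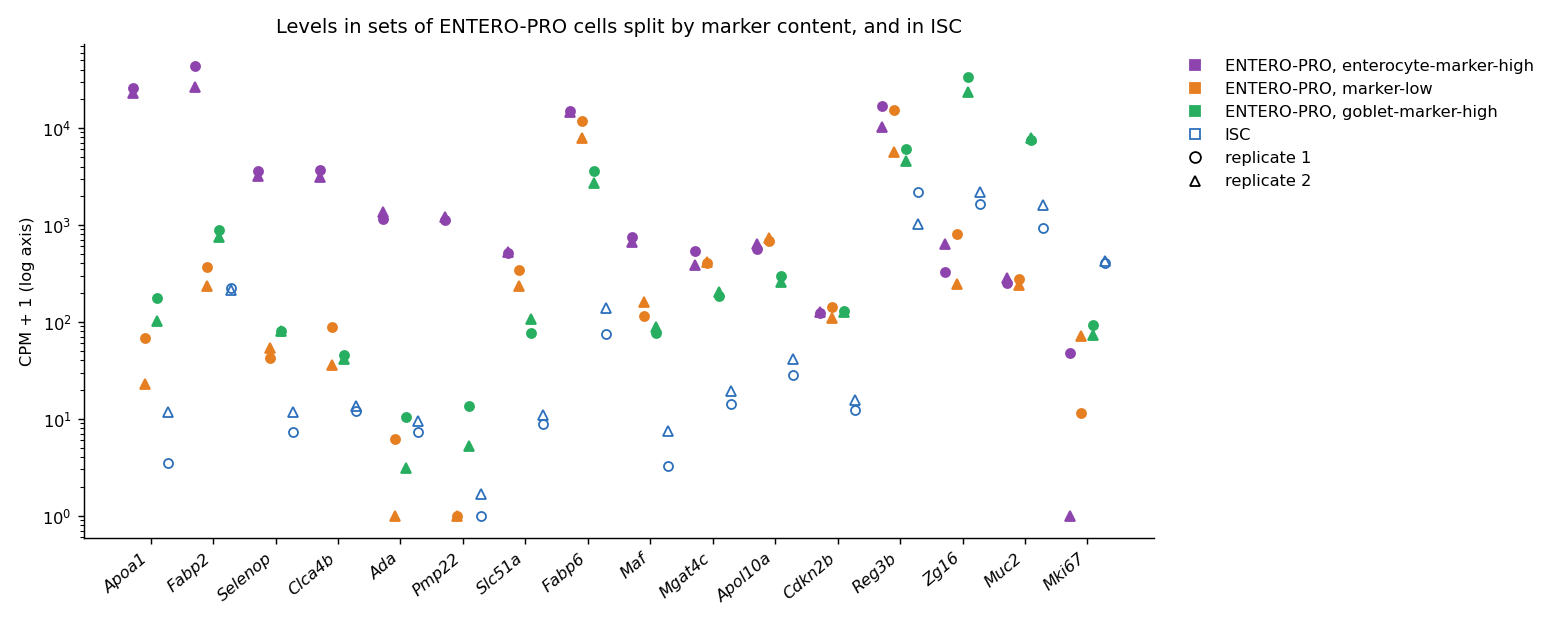
Points give CPM plus 1 before scaling, on a log axis, of 16 genes in enterocyte-marker-high, marker-low and goblet-marker-high ENTERO-PRO cells and in all ISC cells, with circles for replicate 1 and triangles for replicate 2. Apoa1, Selenop, Clca4b, Ada and Pmp22 are high in the enterocyte-marker-high set, Zg16 and Muc2 in the goblet-marker-high set, and Fabp6, Slc51a, Mgat4c, Apol10a and Cdkn2b stand above ISC in all 3 sets.

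Host defence genes of the epithelium rose in 19 of 22 tested members and none fell, with a median of 1.91. The filter at an average log2 CPM of 5 left 15 members, of which 12 were higher, with a median of 1.27. Reg3b, a secreted antimicrobial lectin, had 9634 and 4656 CPM in ENTERO-PRO, against 1758 and 797.0 in ISC (log2 2.50 ± 0.31, adjusted p = 4.3e-05). Reg3g, its close relative, had 4019 and 3008 CPM in ENTERO-PRO, against 992.7 and 763.2 in ISC (log2 2.00 ± 0.33). Replicate 1 was above replicate 2 in both classes for both genes. Gsdmc4, a gasdermin with near-identical neighbours, so that its counts are uncertain, had 82.2 and 153.4 CPM in ENTERO-PRO, against 11.5 and 26.7 in ISC. Dmbt1, Nlrp6 and Tm4sf20 did not pass, with log2 differences of 0.42, -0.16 and 0.03. The count was 15 of 22, with a median of 1.43, when the cells over the limits were left out.

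Detoxification genes rose in 23 of 26 members, with a median of 2.16, and in 19 of 25 without the cells over the limits. The filter at an average log2 CPM of 5 left 10 members, of which 8 were higher, with a median of 1.14. Cyp3a13, a cytochrome P450, had 100.6 and 77.2 CPM in ENTERO-PRO, against 2.80 and 3.63 in ISC (log2 4.68 ± 0.27). Sult1b1, a sulfotransferase, had 201.2 and 139.0 CPM in ENTERO-PRO, against 21.4 and 16.1 in ISC. Gstm1, a glutathione transferase, had 24.1 and 21.0 CPM in ENTERO-PRO, against 24.2 and 34.7 in ISC. It did not pass in the whole class and was the member lower in the fit without the cells over the limits.

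Antigen presentation by MHC class I rose in 10 of 15 members, among them H2-K1, a heavy chain, with 770.7 and 536.3 CPM in ENTERO-PRO, against 423.8 and 330.0 in ISC. Leaving out the cells over the limits gave 5 higher, and H2-K1 was at 0.14 on the log2 scale. In the class II list 2 of 8 were higher and 1 lower, against 2 and 0 without the cells over the limits, and against 18.5% higher and 18.4% lower of all genes tested. H2-DMb1 and Ctss, a chaperone and a protease of peptide loading, were higher and Ciita, the activator of the class II genes, was lower at 5.67 and 11 CPM in ENTERO-PRO, against 37.4 and 22.0 in ISC. H2-Aa, H2-Ab1, H2-Eb1 and Cd74, the class II and invariant chains, did not pass, with log2 differences of 0.45, 0.13, -0.39 and 0.13. Ciita lost its call without ENTERO-PRO replicate 1 (adjusted p = 0.0505), without the cells over the goblet limit (0.0687) and without those over either limit (0.162). H2-DMb1 lost its call without ENTERO-PRO replicate 1 (adjusted p = 0.187) or ISC replicate 2 (0.381), in both fits with no replicate block (0.104 and 0.232), by DESeq2's Wald test (0.131), with cells thinned to 2000 UMIs (0.0931) and without the cells over the enterocyte limit (0.0718).

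Interferon-induced genes moved both ways, with 9 of 19 higher and 2 lower. Ifitm3, a membrane protein that restricts viral entry (mm10 chr7:141009586-141010770, minus strand), had 15.6 and 17.7 CPM in ENTERO-PRO, against 543.4 and 308.7 in ISC. Outside the cell type markers it was the most reduced gene at that expression level, 25.3-fold lower in ENTERO-PRO (log2 -4.66 ± 0.56, adjusted p = 3.0e-05). Its relative Ifitm2 had 155.8 and 134.6 CPM in ENTERO-PRO, against 443.4 and 349.9 in ISC. Irf7 and Zbp1, an interferon transcription factor and a nucleic acid sensor, rose by 2.02 and 2.25 on the log2 scale. Neither was called without the cells over the limits, where 1 of the list was higher and 2 were lower. Across classes Ifitm3 was highest in ISC (426.1 CPM) and PANETH (299.0), and GOBLET (12.4), ENTERO-PRO (16.6) and GOBLET-PRE (19) had the lowest means.

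Cell division genes were lower in ENTERO-PRO throughout. All 32 tested genes of DNA replication and the G1/S step were lower, with a median log2 difference of -3.33, or -3.24 with genes at 0 set at their bound. All 30 tested genes of G2 and mitosis were lower too, with a median of -2.92, or -2.91 with genes at their bound. Without the cells over the limits 31 and 30 were lower, with medians of -3.87 and -3.64, here with no bound for genes at 0. The marker-low ENTERO-PRO sums held only 192396 and 228162 UMIs, so the sizes of these medians are less certain than their direction. Mki67, the proliferation antigen, had 52.4 and 55.2 CPM in ENTERO-PRO, against 326.8 and 331.7 in ISC (log2 -2.62 ± 0.22, adjusted p = 7.2e-10). Its mean in ENTERO-PRO, 53.8 CPM, lay among those of GP (52.6), EC (61.9) and PANETH (61.2), classes of the same table, while secretory progenitors (SEC-PRO) had 686.9 and 606.9 CPM. With each cell thinned to 2000 UMIs, 5.38% and 9.87% of ENTERO-PRO cells had an Mki67 UMI, against 40.6% and 41.7% of ISC cells, and the share was 3.77% and 5.66% in GOBLET-PRE. Without thinning it was 18.6% and 11.7% of ENTERO-PRO cells, against 61.1% and 56.3% of ISC cells.

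Outside the cell type markers and under the same expression limit, the 12 most reduced genes were Ifitm3 and 11 genes of chromatin replication or mitosis. Top2a, the topoisomerase of dividing cells, had 21.3 and 33.1 CPM in ENTERO-PRO, against 350.2 and 381.2 in ISC (log2 -3.74 ± 0.21). Cdca7, a DNA methylation maintenance factor, had 14.2 and 6.62 CPM in ENTERO-PRO, against 147.9 and 128.5 in ISC (log2 -3.79 ± 0.35). Mcm6, a subunit of the replicative helicase, had 8.50 and 12.1 CPM in ENTERO-PRO, against 115.8 and 102.7 in ISC (log2 -3.38 ± 0.36). Stmn1 and Tubb5, of microtubule turnover, and Pclaf, Birc5 and Cenpf, of replication, cytokinesis and the kinetochore, were 8.04 to 10.6-fold lower in ENTERO-PRO. The histone genes Hist1h1b, Hist1h2ae and Hist1h2ap were 16.1 to 21.5-fold lower, and the last pair have near-identical copies, so their counts are uncertain. Pole and Kif2c, a replicative polymerase and a mitotic kinesin, had no UMI in ENTERO-PRO and were at least 4.03 and 5.04-fold and at least 3.25 and 3.40-fold lower in the 2 libraries.

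Inhibitors of division rose in part. Cdkn1a, the inhibitor p21, had 211.1 and 156.7 CPM in ENTERO-PRO, against 17.3 and 29.2 in ISC (log2 2.88 ± 0.24). Cdkn2b, the inhibitor p15, had 120.4 and 101.5 CPM in ENTERO-PRO, against 9.16 and 11.5 in ISC (log2 3.32 ± 0.20), and stood between 110 and 140 CPM in all 3 sets of ENTERO-PRO cells. Across classes its mean was 111.0 CPM in ENTERO-PRO and higher in GOBLET, at 215.2 CPM. Cdkn1b and Cdkn2c, the inhibitors p27 and p18, fell by 0.78 and 2.00 on the log2 scale, so the list had 7 of 17 members higher and 2 lower. Leaving out single sums gave between 4 and 8 higher, the lowest without ENTERO-PRO replicate 2, and between 0 and 2 lower. The fit without the cells over the limits gave 2 of 17 higher and 0 lower, with a median of 0.003 against 0.46 in the whole class. Ccng2, a cyclin of arrested cells, rose by 2.65 in the whole class. It was at -0.33 without the cells over the enterocyte limit and not called (edgeR adjusted p = 0.782).

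Ribosome production fell together with division. Of 30 genes of ribosome biogenesis 29 were lower, with a median of -1.57. Ncl, nucleolin, had 266.3 and 386.2 CPM in ENTERO-PRO, against 1294 and 1277 in ISC (log2 -1.99 ± 0.11), and Gnl3, nucleostemin, had 24.1 and 26.5 CPM in ENTERO-PRO, against 145.1 and 126.5 in ISC. All 30 ribosomal protein genes were lower by a smaller amount, with a median of -0.52, and 15 of 30 were lower without the cells over the limits (median -0.31).

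Promoter sequences were read for these groups from RefSeq, as the 250 bases before each gene's start in GRCm38.p6, the assembly named mm10 elsewhere. Of the genes tested, 8561 of 10923 had a promoter in that table. Motifs were searched on both strands: CAAAGTCC or CAAAGTTC, letters of the type bound by HNF4 receptors, and TTTCCCGC, TTTGGCGC, TTTCGCGC or TTTGCCGC, letters of the type bound by E2F factors. The HNF4 letters stood in 4.14% of 1571 promoters of genes called higher and 1.45% of 1589 of genes called lower, beside 2.11% of the genes tested and 2.12% of all 27025 promoters. The E2F letters stood in 2.04% of promoters of genes called higher and 7.11% of those of genes called lower, beside 3.61% of the genes tested and 1.91% of all promoters. These shares are descriptions and were not tested. Of the 12 genes with the largest differences 11 had a promoter, of which Ces2e and Slc51a held HNF4 letters, and of the 12 most reduced genes 8 had a promoter, of which Cdca7 and Mcm6 held E2F letters. The 4 promoters are printed 5′ to 3′ on the gene's strand because they are the ones among these genes that carry the letters, which are in capitals. The windows are chr8:104926010-104926259 (plus strand) for Ces2e, chr16:32487880-32488129 (minus) for Slc51a, chr2:72475969-72476218 (plus) for Cdca7 and chr1:128359706-128359955 (minus) for Mcm6.
Ces2e: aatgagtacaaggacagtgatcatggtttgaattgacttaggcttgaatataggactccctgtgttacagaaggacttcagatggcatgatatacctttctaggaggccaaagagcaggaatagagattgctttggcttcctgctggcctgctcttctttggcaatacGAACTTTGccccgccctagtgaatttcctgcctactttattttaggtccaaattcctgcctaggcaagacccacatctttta
Slc51a: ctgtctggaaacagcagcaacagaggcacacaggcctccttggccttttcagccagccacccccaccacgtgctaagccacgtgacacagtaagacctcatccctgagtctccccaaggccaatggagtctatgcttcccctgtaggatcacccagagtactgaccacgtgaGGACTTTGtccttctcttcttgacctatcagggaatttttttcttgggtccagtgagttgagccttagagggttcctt
Cdca7: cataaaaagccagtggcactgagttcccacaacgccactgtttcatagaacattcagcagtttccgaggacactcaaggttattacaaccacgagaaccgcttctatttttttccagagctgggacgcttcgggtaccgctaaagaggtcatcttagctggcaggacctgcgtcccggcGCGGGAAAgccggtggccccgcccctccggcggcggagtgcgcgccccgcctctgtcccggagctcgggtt
Mcm6: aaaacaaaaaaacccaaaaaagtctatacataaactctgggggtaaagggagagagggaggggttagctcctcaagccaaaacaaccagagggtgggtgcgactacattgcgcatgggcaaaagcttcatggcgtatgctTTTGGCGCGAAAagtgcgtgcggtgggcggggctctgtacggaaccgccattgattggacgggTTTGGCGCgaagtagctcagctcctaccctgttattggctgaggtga
In Ces2e the letters are GAACTTTG and begin 82 bases before the start. In Slc51a they are GGACTTTG, 78 bases before it. In Cdca7 they are GCGGGAAA, 71 bases before it. In Mcm6, TTTGGCGC occurs 110 and 47 bases before the start, and the copy at 110 overlaps GCGCGAAA at 106. These distances are from the RefSeq starts. For Cdca7 and Mcm6 the gene annotation used for the other coordinates differs. It starts Cdca7 at 72476159, inside the printed window, and Mcm6 at 128359664, apart from the window's edge at 128359706. A match of letters shows no binding.

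Transcription factors of the intestine had 18 of 33 members higher and 1 lower, with a median of 0.59, against 8 of 32 higher and 2 lower without the cells over the limits. Hnf4a and Hnf4g are paired receptors that drive enterocyte genes. Hnf4a had 161.5 and 161.1 CPM in ENTERO-PRO, against 137.2 and 172.6 in ISC, a log2 difference of 0.05 ± 0.13 with ISC values on both sides (adjusted p = 0.80), and its sign turned in 7 of the alternative fits. Hnf4g had 120.4 and 122.5 CPM in ENTERO-PRO, against 48.1 and 46.1 in ISC (log2 1.37 ± 0.15, adjusted p = 1.9e-12), and its mean in ENTERO-PRO was above that of each other class in the table, the next being ISC (47.1) and NON-EC (43.0). Cdx2, which sets intestinal identity, had 90.7 and 78.3 CPM in ENTERO-PRO, against 89.6 and 86.0 in ISC (log2 -0.06 ± 0.16). Maf, a factor known to act in villus enterocytes, had 185.6 and 145.7 CPM in ENTERO-PRO, against 1.78 and 5.09 in ISC (log2 5.41 ± 0.40), and 5.33 without the cells over the limits. Across classes its mean was 165.6 CPM in ENTERO-PRO, 72.3 in GOBLET and at most 4.94 elsewhere. Gata6 fell by 0.52 on the log2 scale. Leaving out single sums gave between 11 and 16 members higher, the lowest without ENTERO-PRO replicate 2 and without ISC replicate 2.

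Of 17 tested Notch pathway genes 3 were higher and 7 lower, beside 18.5% higher and 18.4% lower of all genes tested. The count higher is near that share and is not read as a result about the pathway. Leaving out single sums gave 1 to 2 higher and 4 to 6 lower, and leaving out the cells over the limits 1 of 15 higher and 3 lower. By edgeR no member was called higher with no replicate block over all 24 sums or with cells thinned to 2000 UMIs, and DESeq2's Wald test called 1 higher. Notch1, the receptor of stem cells, had 2 and 1 UMIs in ENTERO-PRO and 120 and 206 in ISC, or 2.83 and 1.10 CPM, against 30.5 and 21.4. Hes1, the Notch target that represses Atoh1, had 46.8 and 76.1 CPM in ENTERO-PRO, against 87.0 and 148.6 in ISC (log2 -0.96 ± 0.17, adjusted p = 3.0e-06). Replicate 2 was above replicate 1 in both classes, and the ENTERO-PRO value of replicate 2 came close to the ISC value of replicate 1. With no replicate block the call was lost over all 24 sums (log2 -0.93, adjusted p = 0.328) and kept over the 4 sums of these classes alone (log2 -1.02). Dtx4, an E3 ligase of the pathway, and Nrarp, a feedback target, were also lower, though Dtx4 lost its call without ENTERO-PRO replicate 2 (adjusted p = 0.071). Adam10 and Ncstn, of the proteases that cut the receptor, rose by 0.41 and 0.84.

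Atoh1, the secretory fate factor whose promoter drives the Cre here, had 32.6 and 30.9 CPM in ENTERO-PRO, against 15.5 and 20.7 in ISC (log2 0.72 ± 0.35, adjusted p = 0.12). It did not pass the test, and SEC-PRO had 110.5 and 92.1 CPM. Before scaling, Atoh1 had 59.6 and 58.9 CPM in goblet-marker-high cells, 5.20 and 0 in marker-low cells, 9.37 and 0 in enterocyte-marker-high cells and 19.3 and 26.5 in ISC. Dll1, the Notch ligand of secretory progenitors, had 25.5 and 21.0 CPM in ENTERO-PRO, against 15 and 17.9 in ISC (adjusted p = 0.265). Of the 8 secretory progenitor markers Spdef and Gfi1 were higher and Hes6 and Sox4 lower. Sox4 had 15.6 and 17.7 CPM in ENTERO-PRO, against 187.6 and 139.3 in ISC (log2 -3.27 ± 0.24). Spdef rose by 0.73 in the whole class and was at -2.58 without the cells over the limits. Of 16 further secretory transcription factors 3 were higher and 1 lower, beside 18.5% higher and 18.4% lower of all genes tested. Without the cells over the limits 0 of these factors were higher and 2 lower. Creb3l4, one of them, rose by 1.42. It was at -0.68 without the cells over the goblet limit and not called (edgeR adjusted p = 0.648).

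Wnt pathway genes had 4 of 27 members higher and 9 lower, with a median of -0.53, or 0.00 with genes at 0 set at their bound. The 4 include Zbp1, which is also counted in the interferon list. Of all genes tested 18.5% were higher and 18.4% lower. Leaving out single sums gave 2 to 4 higher and 6 to 9 lower, with 6 lower without ENTERO-PRO replicate 2 and a median of -0.09 without ENTERO-PRO replicate 1. The fit without the cells over the limits gave 2 higher and 9 lower, with a median of -1.27 that sets no bound for genes at 0. Cd44, a target and surface receptor, had 1 UMI in each ENTERO-PRO sum, against 151 and 399 in ISC. Rnf43, a ligase that removes Wnt receptors, had 8.50 and 11 CPM in ENTERO-PRO, against 54.7 and 35.4 in ISC (log2 -2.11 ± 0.32). Sox9, a factor of crypt base cells, had 22.7 and 36.4 CPM in ENTERO-PRO, against 110.0 and 106.4 in ISC (log2 -1.83 ± 0.22), and Myc fell by 2.73. Ctnnb1 and Gsk3b, the core of the pathway, had log2 differences of 0.36 and 0.07, and of these Ctnnb1 was called. Ephb2 and Ephb3, receptors that sort cells along the crypt, were lower, and their ligand Efnb1 rose by 0.97. Among junction and adhesion genes 11 of 22 were higher and 5 lower (7 and 3 without the cells over the limits), with Cdh17, the intestinal cadherin, at 436.3 and 424.8 CPM in ENTERO-PRO, against 139.5 and 171.3 in ISC, and Cldn2, the leaky claudin of crypts, lower by a log2 difference of -0.79.

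Over all genes tested 18.5% were higher and 18.4% lower. Beside these shares, the counts in the BMP and EGF lists are not read as results about the pathways. Id3, a BMP target, had 165.8 and 133.5 CPM in ENTERO-PRO, against 76.4 and 73.3 in ISC (log2 0.99 ± 0.15), and with Bmp2 and Smad7 it made up the 3 of 20 BMP members called, all higher. Without the cells over the limits 2 of 20 were higher and 1 lower. Bmp2 and Smad7 lost their calls without ENTERO-PRO replicate 1 (adjusted p = 0.199 and 0.0937). In the EGF list 4 of 16 were higher, with a median of 0.52, which was -0.51 without ENTERO-PRO replicate 2. The fit without the cells over the limits had 1 of 16 higher and a median of -0.35. The member called lower was Lrig1, a receptor inhibitor and stem cell gene, at 14.2 and 6.62 CPM in ENTERO-PRO, against 37.2 and 30.1 in ISC. Erbb3, a receptor, rose by 1.13 ± 0.17.

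**Figure D5:**
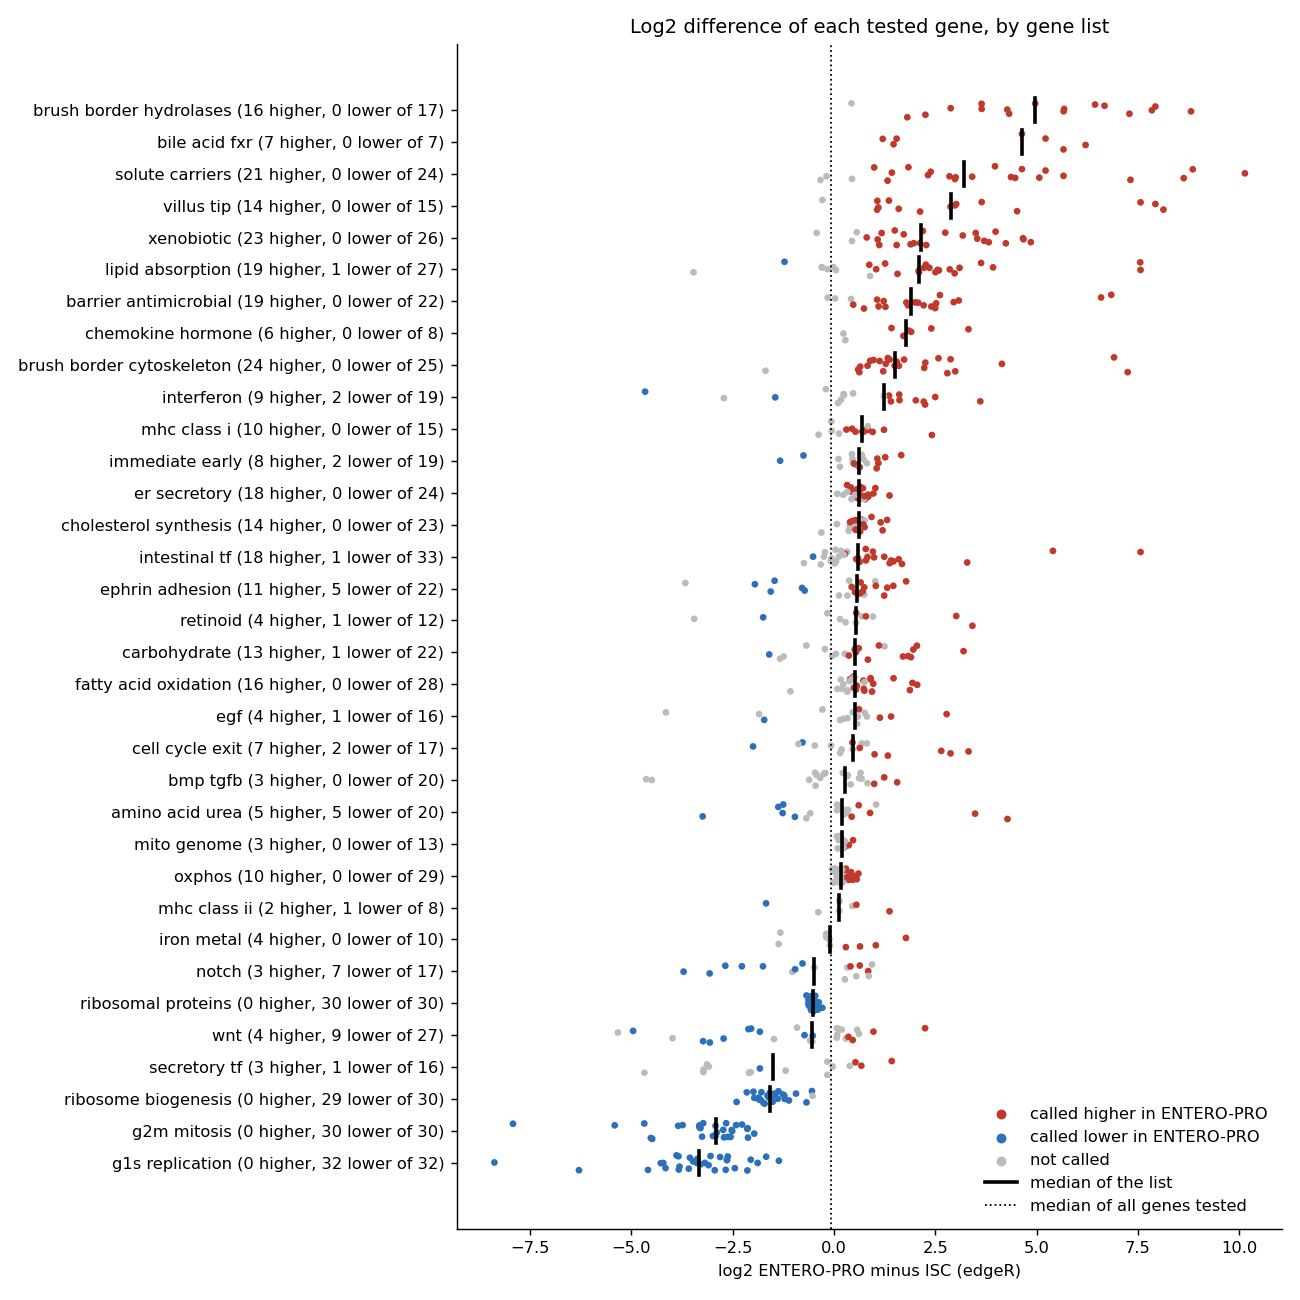
Each row is a gene list and each point a tested member with its log2 difference, ENTERO-PRO minus ISC, coloured by its call, with the list's median as a bar and the median of all genes, -0.07, as a dotted line. Every tested member of the replication, mitosis, ribosome biogenesis and ribosomal protein lists lies left of 0, and the medians of the brush border, carrier and bile acid lists lie right of it.

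Energy metabolism genes had smaller differences. Fatty acid oxidation had 16 of 28 members higher and none lower, with a median of 0.53, and leaving out single sums gave between 8 and 15, the lowest without ENTERO-PRO replicate 2, and 10 with no replicate block over the 4 sums alone. Without the cells over the limits 13 of 28 were higher, with a median of 0.85. Acadm, the medium chain dehydrogenase, had 121.8 and 126.9 CPM in ENTERO-PRO, against 61.1 and 65.5 in ISC. Nuclear genes of oxidative phosphorylation had 10 of 29 higher, with a median of 0.18, and 24 of 29 without the cells over the limits, with a median of 0.53. That count was 4 to 13 when single sums were left out, the lowest without ISC replicate 2, 7 with DESeq2 size factors and 5 by DESeq2's Wald test. With no replicate block it was 2 over all 24 sums and 0 over the 4 sums of these classes alone. Uqcrfs1, the Rieske subunit, had 264.9 and 256.0 CPM in ENTERO-PRO, against 202.9 and 147.1 in ISC. Of 13 mitochondrial genome transcripts 3 were higher, against 1 without the cells over the limits and, with no replicate block, 1 over all 24 sums and 0 over the 4 sums alone. In the whole class 18.5% of all genes tested were higher. The 3 were mt-Co1 with a log2 difference of 0.47, mt-Nd5 with 0.37 and mt-Nd4l with 0.26. mt-Co1 lost its call without ENTERO-PRO replicate 1 (adjusted p = 0.0587), and mt-Co1 and mt-Nd5 lost theirs without the cells over the limits (0.279 and 0.139). mt-Nd4l lost it without ENTERO-PRO replicate 2 (adjusted p = 0.467), without ISC replicate 1 (0.0686) or replicate 2 (0.122) and with DESeq2 size factors (0.121).

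Sugar metabolism had 13 of 22 members higher and 1 lower, against 9 and 1 without the cells over the limits, and 14 and 3 without ISC replicate 2. Khk, the fructokinase, had 59.5 and 51.9 CPM in ENTERO-PRO, against 11.5 and 14.4 in ISC, and Ckmt1, a mitochondrial creatine kinase, had 420.8 and 364.1 CPM in ENTERO-PRO, against 107.2 and 129.3 in ISC. Pck2, the mitochondrial PEP carboxykinase, was the member that fell (log2 -1.60 ± 0.31), while Pck1, its cytosolic counterpart, rose by 3.20. Amino acid genes had 5 of 20 higher and 5 lower, 2 to 3 higher and 3 to 5 lower when single sums were left out (2 and 4 without ENTERO-PRO replicate 2, 3 and 3 without ENTERO-PRO replicate 1), and 4 higher and 3 lower without the cells over the limits. Beside these counts, 18.5% of all genes tested were higher and 18.4% lower. Arg2, the mitochondrial arginase, had 53.8 and 51.9 CPM in ENTERO-PRO, against 3.05 and 2.60 in ISC (log2 4.28 ± 0.37). Phgdh, which opens serine synthesis, had 4.25 and 2.21 CPM in ENTERO-PRO, against 30.8 and 28.7 in ISC (log2 -3.24 ± 0.47), and Psat1 and Shmt2 of the same route were also lower. Cholesterol synthesis had 14 of 23 members higher and none lower, among them Msmo1 (1.20 ± 0.16), Sc5d (1.31 ± 0.18) and Cyp51 (0.93 ± 0.15). That count was 9 without ENTERO-PRO replicate 1 and 6 of 23 without the cells over the limits.

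Secretory machinery of the endoplasmic reticulum had 18 of 24 members higher by a median of 0.62, and 5 of 24 without the cells over the limits. Manf, a stress-induced secreted factor, had 383.9 and 326.6 CPM in ENTERO-PRO, against 225.3 and 206.7 in ISC. Its log2 difference of 0.71 was at 0.30 without those cells and was not called. Immediate early and heat shock genes had 8 of 19 higher and 2 lower, with a median of 0.62, and 3 to 12 higher when single sums were left out (3 without ENTERO-PRO replicate 2 and 12 without ISC replicate 2). Leaving out the cells over the limits gave 2 of 19 higher and 2 lower, with a median of 0.10. The pair that fell were the chaperones Hsp90aa1, with 289.0 and 350.9 CPM in ENTERO-PRO, against 827.7 and 779.3 in ISC, and Hspa8 (log2 -0.75 ± 0.09). Fos, a dissociation-sensitive gene, had 209.7 and 275.9 CPM in ENTERO-PRO, against 61.6 and 162.1 in ISC, and was at 0.10 on the log2 scale without the cells over the limits.

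Secreted signals of the epithelium rose in 6 of 8 tested members, against 2 of 8 without the cells over the limits and 4 of 8 without those over the enterocyte limit alone. Ccl25, the chemokine that draws lymphocytes to the gut, had 464.7 and 357.5 CPM in ENTERO-PRO, against 174.6 and 134.4 in ISC (log2 1.42 ± 0.20), and Il18, a cytokine, had 28.3 and 23.2 CPM in ENTERO-PRO, against 4.84 and 1.35 in ISC. Iron and metal genes had 4 of 10 higher, among them Fth1, ferritin heavy chain, and Heph, the basolateral iron oxidase. That count was 1 of 10 without the cells over the limits, where Heph was at 1.26 on the log2 scale and not called (adjusted p = 0.092). Retinoid genes had 4 of 12 higher and 1 lower, but 1 higher without ISC replicate 2, 2 without ENTERO-PRO replicate 2 and 2 of 11 without the cells over the limits. The member called lower was the receptor Stra6l, at 1.42 and 6.62 CPM in ENTERO-PRO, against 13.0 and 15.5 in ISC, a call lost without ENTERO-PRO replicate 1 (adjusted p = 0.167).

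Markers of the remaining cell types were summed in the same way. The 8 Paneth markers tested by edgeR had adjusted p between 0.051 (Mptx2) and 0.53 (Defa22), and the summed Paneth level before scaling was 8875 and 22237 CPM in ENTERO-PRO, against 8153 and 13326 in ISC and 97843 and 178140 CPM in free RNA. Of 12 enteroendocrine markers only Chgb was called, lower at 1.42 and 4.41 scaled CPM in ENTERO-PRO, against 23.4 and 46.5 in ISC, and their summed level was 115.3 and 77.3 CPM in ENTERO-PRO, against 83.0 and 145.5 in ISC. Tuft markers summed to 7.90 and 6.33 CPM in ENTERO-PRO, against 15.5 and 10.8 in ISC. Immune, stromal and red cell markers summed to at most 3.16 CPM in any of the 4 sums.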

How the data were processed

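Raw UMI counts per gene and barcode were deposited by the authors for 2 libraries, made with Cell Ranger 3.0.2 and STAR on mm10 per the submitters' processing notes. The authors' cell table gave each cell's class, UMI count and percent of mitochondrial UMIs, per the file headers. How cells were kept and classes assigned is stated in no source used here. The cells' summed counts equalled the authors' UMI counts in 77.6% and 73.9% of cells, with a largest difference of 11 and 25 UMIs.

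Counts were summed per library and class, giving 24 sums. A quasi-likelihood model (edgeR 4.0.16, R 4.3.3) with class and library terms was fitted to the 10994 of 31053 genes kept by filterByExpr, with TMM factors from the 1984 genes averaging a log2 CPM of 6 or more, and Benjamini-Hochberg adjustment at 0.05. The 92 cell type markers were left out of the counts of called genes. Standard errors and adjusted p-values are from this model. The script was tested on simulated data. DESeq2 1.42.0, other filters and scalings, leaving out single sums, thinning cells to 2000 UMIs and leaving out the 10% of cells with the highest doublet scores (scanpy 1.11.5) were alternatives. The limits on marker content were added after the data were seen.

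ENTERO-PRO and ISC sums are paired because both come from the same library. Their deviations correlated at 0.455 over 3827 genes, against a median of 0.297 over 66 pairs of classes. Genes at 0 in a class were given a bound from a floor of 3 UMIs per library. The gene lists and the rule for named genes were chosen with earlier results of these data known. The rule took the 12 largest and 12 smallest differences among called genes with a mean log2 CPM of at least 5 over the 4 sums and the same direction in both libraries, the 3 called members of smallest p in each list, and preset genes. Other genes were named after their values were seen. Some named genes are not reported here.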

Additional observations from a re-analysis of the deposited data

How the results depend on the processing

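The counts of 2026 genes higher and 2012 lower stayed within 1.5 times under TMM factors from all genes, DESeq2 size factors, DESeq2's Wald test, no filter, the replicate block with the 4 sums alone, no replicate block with all 24 sums, no top doublet scores and fixed markers counted. The fit of the 4 sums with the replicate block gave 1779 higher and 2323 lower, or 43.4% of calls higher against 50.2%, and DESeq2 size factors gave 1818 and 2219 (45.0%). The 4 sums with no replicate block gave 1166 higher and 1583 lower. A filter at an average log2 CPM of 5, which tests fewer genes, gave 1188 higher and 962 lower (55.3%). Thinning to 2000 UMIs, which uses fewer UMIs and cells, gave 1245 and 1024. Leaving out cells over either marker limit, which uses fewer cells of both classes, gave 991 and 1103. Leaving out single sums gave 1448 to 1870 higher and 1266 to 1907 lower. Of 1998 values of 121 named genes over 17 settings, 1917 kept direction and call, 64 lost the call and 17 changed sign. The log2 difference of Hnf4a was -0.0127 with DESeq2 size factors, -0.0062 with the Wald test, -0.0297 in the 4 sums with the replicate block and -0.0311 without it, -0.0682 to 0.211 when single sums were left out (lowest without ENTERO-PRO replicate 1), -0.22 without cells over the enterocyte limit and -0.34 without those over either. Cdx2 was at -0.12 to 0.016 when single sums were left out, the highest without ENTERO-PRO replicate 2. Without cells over the enterocyte limit Ada was at -0.83 and Ccng2 at -0.33, and without those over the goblet limit Creb3l4 was at -0.68. These values were not called (edgeR adjusted p = 0.396, 0.782 and 0.648). Without cells over either limit the values were -1.64 for Ada, -6.25 for Ccng2, -1.30 for Creb3l4, -0.37 for Dusp6, -0.58 for Klf4 and -2.32 for Pmp22. None of them was called either, with edgeR adjusted p between 0.213 (Ccng2) and 0.904 (Dusp6). A fall in marker-low cells was thus not shown for these genes. Beyond what is stated, the cause was not tested. Genes with few UMIs in the 118 and 179 ENTERO-PRO cells are limited by depth.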
